A study of Mus musculus with 3 samples.

Results

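The Schlafen genes of the mouse are described here in cultured CD8+ T cells, the lymphocytes that kill infected cells. The members are the 7 genes with the symbols Slfn1, Slfn2, Slfn3, Slfn4, Slfn5, Slfn8 and Slfn9, all of which were found among the 17121 genes of the expression table. The cells came from spleen and lymph node, the genotype of all mice is given as WT, and RNA was taken on day 3 of culture. The aged TRM library came from mice of 18 months and the young TRM library from mice of 6 weeks. Both were stimulated through CD3 and CD28 with antibodies (1 µg/ml), which engage the T cell receptor and a co-stimulatory receptor, and were also given IL-15 (20 ng/ml) with TGF-beta (5 ng/ml). Those cytokines are used in culture to favour features of tissue-resident memory T cells (TRM). The young TCR library came from mice of 6 weeks and had only the antibodies, at the same dose. The cultures model residency outside tissue. Each of the 3 groups is 1 sample, without replicate samples, and an aged culture with the antibodies alone was not analysed here.

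The Schlafen family takes its name from the German word for sleeping, since its founding members were found in thymocytes and resting T cells and slow growth when forced on. Mice with a damaged Slfn2 have T cells that fail to stay quiescent, and the Slfn2 protein has been described as a guard of transfer RNA against cleavage during activation. Family members share a core region, several are induced by interferon, and the mouse set is sorted by size into a short class (Slfn1 and Slfn2), an intermediate class (Slfn3 and Slfn4) and a long class with a helicase-like end (Slfn5, Slfn8 and Slfn9).

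All 7 members lie side by side on chromosome 11, from 82951349 to 83215154 of GRCm38.p6, a span of 264 kb. In order they are Slfn5, Slfn9, Slfn8, the pseudogene Slfn10-ps, Slfn2, Slfn1, Slfn4 and Slfn3. Slfn8, Slfn9 and Slfn10-ps are read from the minus strand and the others from the plus strand. A promoter (250 bases before to 50 after an annotated start) was found in RefSeq's GRCm38.p6 set for 7 of 7 members. The bases just after the start were found in a GENCODE M21 transcript of the gene for every member except Slfn1. The place of the Slfn1 start, and so of its window, is therefore less certain. For Slfn5 the only promoter in the set lies inside the annotated gene, so bases before the outer end of that gene were not searched. The promoters are shown because the size classes differ in the short letter runs they hold. The core of the interferon-stimulated response element, which is GAAA and GAAA with any 2 bases between, on either strand, occurred once in each promoter of the long class and in none of Slfn1, Slfn2, Slfn3 and Slfn4, against 3.44% of all 32851 promoters of that length. The windows below run 5′ to 3′ along each gene, with the match in capitals. They are chr11:82951912-82951991 (plus strand, within the annotated span of Slfn5 and of its antisense gene Slfn5os, with 7 bases in an exon of Slfn5), chr11:83020814-83020893 (minus strand, upstream of Slfn8) and chr11:82991831-82991910 (minus strand, upstream of Slfn9).
Slfn5: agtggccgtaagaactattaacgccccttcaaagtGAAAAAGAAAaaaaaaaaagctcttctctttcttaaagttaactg
Slfn8: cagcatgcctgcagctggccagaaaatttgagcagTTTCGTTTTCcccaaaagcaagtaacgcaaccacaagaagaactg
Slfn9: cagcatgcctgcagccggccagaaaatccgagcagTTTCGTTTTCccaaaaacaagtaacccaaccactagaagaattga

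The Slfn8 and Slfn9 promoters were 86.5% identical over 289 aligned bases, and in both the match is on the opposite strand, 48 and 45 bases before the start. The short and intermediate members instead held ACTTCCTGG, the longest run common to their 4 promoters and the one in capitals below. It contains TTCC, the complement of the GGAA core that ETS-family factors bind. This run was picked after the promoters had been compared with each other. It occurred in 0.843% of all promoters, on either strand, and in none of Slfn5, Slfn8 and Slfn9. The windows are chr11:83116711-83116789 (Slfn1), chr11:83065022-83065100 (Slfn2), chr11:83191253-83191329 (Slfn3) and chr11:83175078-83175156 (Slfn4), all plus strand and upstream of the gene.
Slfn1: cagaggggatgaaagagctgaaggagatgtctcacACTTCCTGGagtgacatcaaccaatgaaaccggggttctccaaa
Slfn2: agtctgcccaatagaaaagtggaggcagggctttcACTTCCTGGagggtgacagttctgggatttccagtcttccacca
Slfn3: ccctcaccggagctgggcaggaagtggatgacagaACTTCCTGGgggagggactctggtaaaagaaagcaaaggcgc
Slfn4: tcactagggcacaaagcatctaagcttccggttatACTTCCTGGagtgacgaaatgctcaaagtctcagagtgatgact

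Of the other runs searched on both strands, TTCNNNGAA (the STAT element GAS) and GTCTAGAC (a SMAD element) occurred in no member promoter, against 8.30% and 0.213% of all promoters. The AP-1 element TGANTCA occurred in Slfn4 alone among the members, against 7.81% of all promoters. These are descriptions of letters in a 300-base window.

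The gene table held 40385477 reads for aged TRM, 36021887 for young TRM and 39915663 for young TCR. Each library had 2 numbered columns, whose meaning the labels leave unstated. They are taken here as repeats of 1 measurement. No difference could therefore be tested against variation between mice or cultures, and the 95% intervals of ratios are for counting error only. Levels of different genes are compared in TPM, which divides reads by transcript length, and libraries are compared in CPM, reads put on a shared scale for all libraries with trimmed-mean (TMM) factors. The words rose and fell are kept for genes at least 2-fold apart in CPM after adding 1, with an interval of the ratio that leaves out 1. The 8 T cell identity markers, Cd8a and the CD3 chains among them, lay between 122 and 1822 CPM in the 3 libraries. The B and plasma cell list summed to 23.7, 17.1 and 47.1 CPM in aged TRM, young TRM and young TCR. The myeloid list summed to 112, 140.3 and 58.3 CPM, most of it Ctss, and Adgre1 was at 0 in young TRM. CD4 T cell markers summed to 30.1, 54.2 and 31.0 CPM, and red cell and platelet markers to 5.04, 2.07 and 9.13 CPM. Foxp3 made up 33.6 CPM of the CD4 sum in young TRM. NK and innate lymphoid markers summed to 120.1, 90.9 and 32.1 CPM, most of it Kit (110.5, 78.4 and 29.65 CPM). Of these 5 genes, 4 were lower in aged TRM than in young TRM and 1, Kit, was higher. In bulk RNA, fewer cells that express a gene and less RNA per cell cannot be told apart.

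Slfn2 and Slfn1 made up most Schlafen transcripts in every library. Slfn2, the member needed for T cell quiescence, stood at 197 TPM in aged TRM (columns 199 and 195), 201 TPM in young TRM (196 and 207) and 234 TPM in young TCR (232 and 237). Slfn1, the founding member, stood at 109 TPM in aged TRM (109 in both columns), 199 TPM in young TRM (198 and 199.7) and 119.7 TPM in young TCR (119 and 121). Together these short members held 86.3%, 87.5% and 88.1% of the summed TPM of the 7 members in aged TRM, young TRM and young TCR. Their ratio differed between libraries. Slfn1 was at 0.554 times the TPM of Slfn2 in aged TRM (0.546 and 0.563 in the columns), at 0.987 times in young TRM (1.01 and 0.966) and at 0.511 times in young TCR (0.512 and 0.51). The columns of Slfn1 and Slfn2 overlapped in young TRM and were apart in the other libraries.

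**Figure D1:**
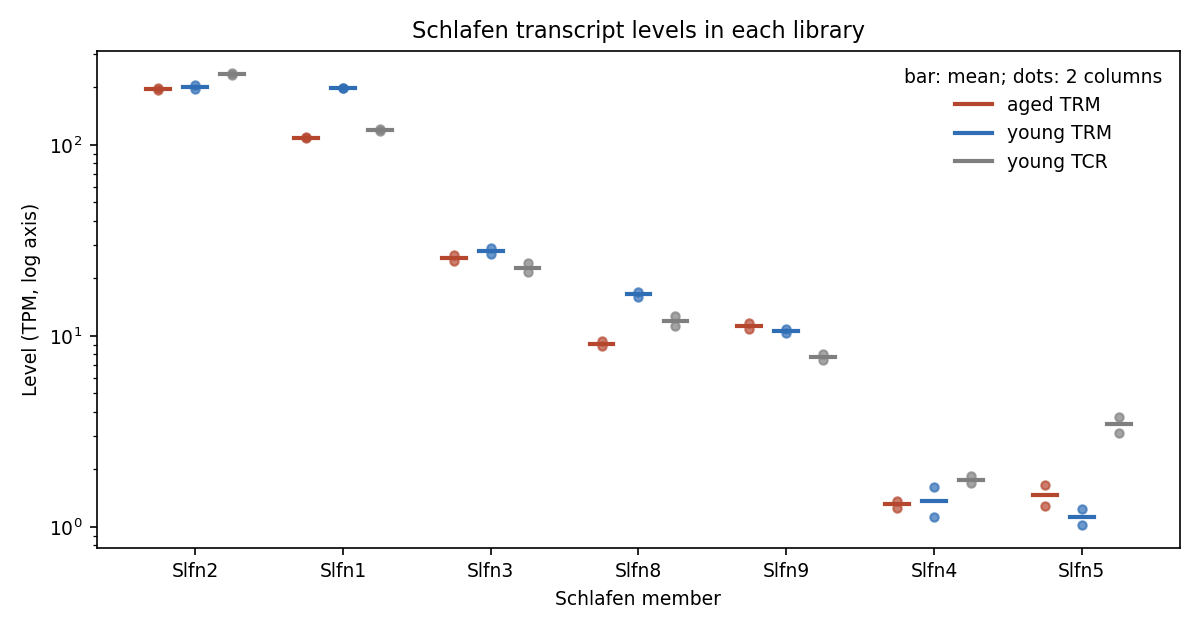
Level of each Schlafen member in TPM (log axis) in the aged TRM, young TRM and young TCR libraries. Short bars are the mean of the 2 columns of a library and dots are the columns. Slfn2 and Slfn1 stand at 109 TPM or above in every library, and Slfn4 and Slfn5 at 3.44 TPM or below.

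The intermediate member Slfn3, studied mostly in the differentiation of gut epithelium, came next at 25.6 TPM in aged TRM, 27.8 TPM in young TRM and 22.8 TPM in young TCR. Of the long members, Slfn8 stood at 9.12 TPM in aged TRM (columns 9.38 and 8.85), 16.5 TPM in young TRM (16.1 and 17.0) and 12.0 TPM in young TCR (11.2 and 12.7). Slfn9 stood at 11.3 TPM in aged TRM (11.7 and 10.9), 10.6 TPM in young TRM (10.3 and 10.8) and 7.78 TPM in young TCR (7.51 and 8.04). Slfn8 was thus above Slfn9 in both young libraries and below it in aged TRM, with columns apart in all 3. Slfn5, a long member that in human cells acts in the nucleus, stood at 1.47 TPM in aged TRM, 1.13 TPM in young TRM and 3.44 TPM in young TCR. Slfn4, known mainly from myeloid cells, stood at 1.31, 1.37 and 1.77 TPM in the same order. Slfn4 and Slfn5 could not be ordered in aged TRM or young TRM, where their columns overlapped, and Slfn5 was the higher in young TCR. Against all genes above 0 TPM, Slfn2 ranked 815th of 16158 in aged TRM, 753rd of 15758 in young TRM and 630th of 16058 in young TCR, while Slfn1 ranked 1641st, 764th and 1405th.

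Summed over the 7 members, Schlafen transcripts came to 355 TPM in aged TRM (columns 357 and 353), 457 TPM in young TRM (449 and 466) and 402 TPM in young TCR (395 and 408). The difference of 55.9 TPM between young TRM and young TCR was smaller than that of Slfn1 alone (79.0 TPM), since Slfn2 differed by -32.85 TPM. Between aged TRM and young TRM the sum differed by -103 TPM, of which Slfn1 made up 87.2%. Without Slfn1 the sums were 246, 259 and 282 TPM in aged TRM, young TRM and young TCR.

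**Figure D2:**
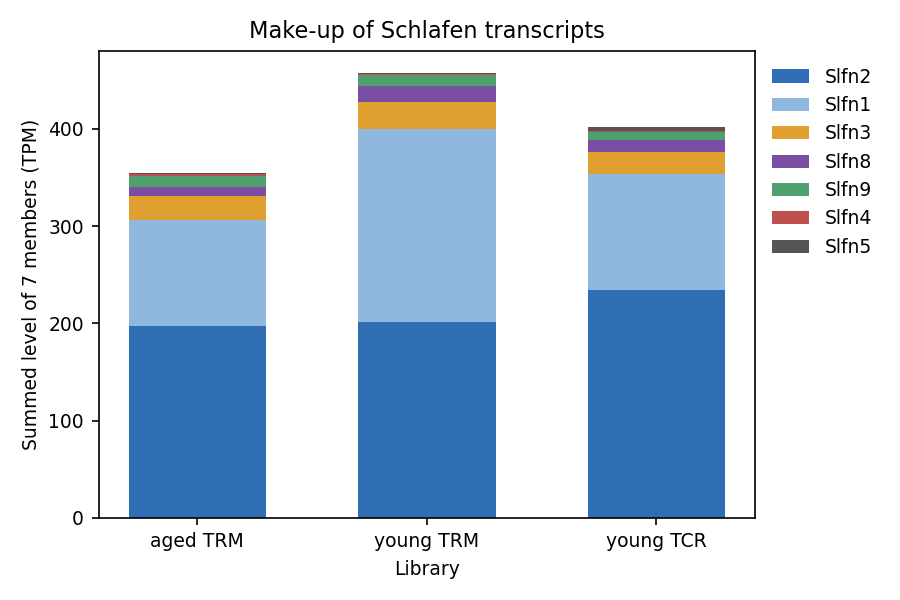
Summed TPM of the 7 members, stacked by member, in the aged TRM, young TRM and young TCR libraries. The young TRM bar is the tallest at 457 TPM and its Slfn1 share is 43.4%, against 30.8% in aged TRM and 29.8% in young TCR.

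The first comparison asked what added IL-15 and TGF-beta did to young CD8+ T cells. Of the 7 members, 1 fell in young TRM, the long member Slfn5, and 0 rose. Among all genes, 7.78% of 11588 tested genes passed the same rule, 4.18% higher and 3.6% lower, so 1 of 7 is no more than a description of Slfn5. All 7 members were tested, and their median log2 ratio was 0.29, against 0.02 for all tested genes, with 4 members above 0 and 3 below. The columns of both libraries were apart for 7 of 7 members, which was also the case for 78.9% of all tested genes.

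Slfn5 had 3.55 CPM in young TRM (columns 3.09 and 3.90) against 10.7 CPM in young TCR (9.92 and 11.7). It was 3.02-fold lower in young TRM (2.47 to 3.72), a log2 ratio of -1.37, and the 4 pairings of columns ranged between -1.64 and -1.16. A ratio this low or lower was found in 1.83% of tested genes. The call ended with a pseudocount of 5 (-0.88), which shrinks ratios of weakly expressed genes, and Slfn5 rested on 125 and 435 reads. Slfn5 shares 7.39% of its 50-base runs with the antisense gene Slfn5os on the opposite strand, with the use of strand in counting not given in the sources used here. Markers of B and plasma cells were lower too, with 5 of 6 tested genes fallen and 0 risen (1 called with a pseudocount of 5 and 0 with a minimum of 10 CPM), among them Ms4a1 at 0.426 and 7.40 CPM in young TRM and young TCR. Red cell and platelet markers did too, with 2 of 2 tested genes fallen (1 and 0 with these settings). The part of either cell type in the level of Slfn5 was not tested.

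Slfn1 had 190.4 CPM in young TRM (columns 187 and 192) against 114 CPM in young TCR (115 and 114). Its level in young TRM was 1.67 times that in young TCR (1.61 to 1.74), a log2 ratio of 0.74 that lies under the 2-fold threshold. The columns were well apart and the 4 pairings lay between 0.69 and 0.74, while 6.70% of tested genes had a ratio as high or higher. The long members Slfn8 and Slfn9 and the intermediate member Slfn3 lay on the same side, at ratios of 1.39 (1.28 to 1.52), 1.33 (1.24 to 1.42) and 1.24 (1.12 to 1.36). Slfn8 had 32.4 CPM in young TRM (30.8 and 33.5) and 23.3 CPM in young TCR (21.7 and 25.3).

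Slfn2 had 169 CPM in young TRM (162 and 174) against 195 CPM in young TCR (197 and 196). Its ratio was 0.869 (0.84 to 0.899), so the short members Slfn1 and Slfn2, which are neighbours in the cluster, lay on opposite sides of 1. Slfn4 had 2.61 CPM in young TRM (3.09 and 2.20) and 3.43 CPM in young TCR (3.39 and 3.53), a ratio of 0.762 whose interval (0.579 to 0.998) came close to 1. Markers of myeloid cells, from which Slfn4 is known, went both ways. Of 5 tested, Mpeg1 and Ctss rose and 0 fell, 3 lay above 0 on the log2 scale and 2 below, and Cd68 had 5.25 CPM in young TRM and 9.23 CPM in young TCR. The part of myeloid cells in the level of Slfn4 was not tested.

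**Figure D3:**
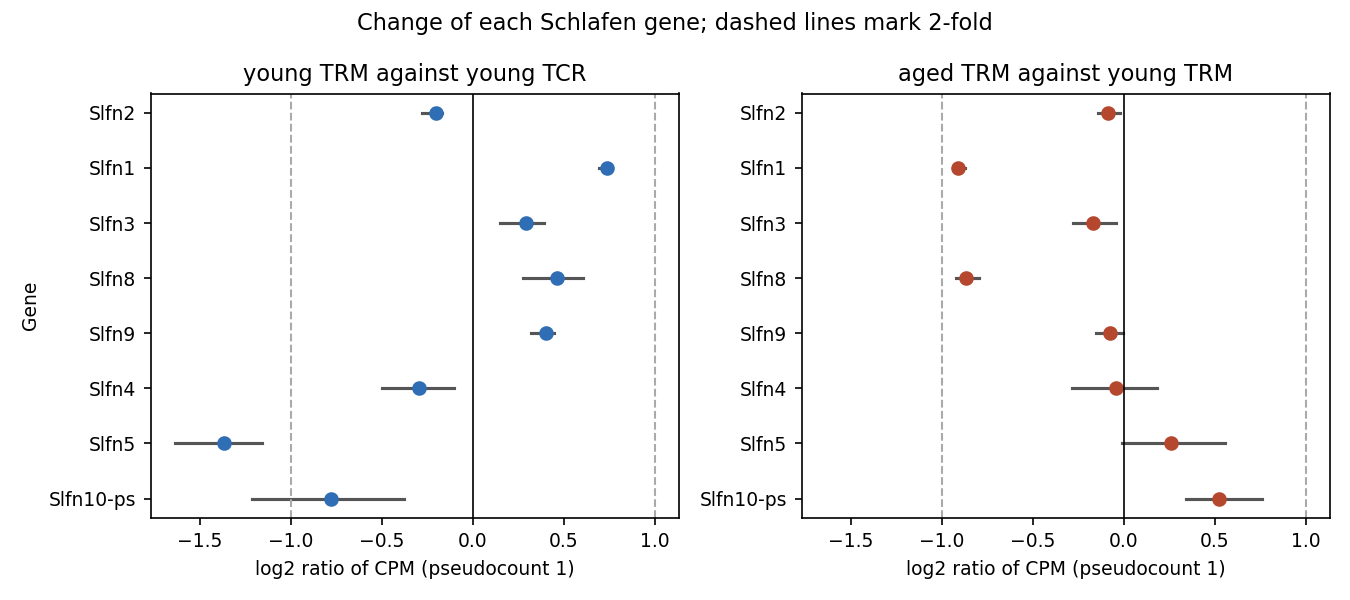
Log2 ratio of CPM (pseudocount 1) for each Schlafen gene, young TRM against young TCR on the left and aged TRM against young TRM on the right. Dots are the summed columns, lines span the 4 pairings of columns, and dashed lines mark 2-fold. Slfn5 lies past the line on the left at -1.37, and Slfn1 and Slfn8 lie close to it on the right at -0.91 and -0.87.

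The age comparison asked how aged and young cells differed under the same cytokines, aged TRM against young TRM. No member passed the 2-fold rule in either direction (0 of 7), where 3.4% of 11575 tested genes did, 2.25% higher and 1.15% lower. The median of the 7 members was -0.09, against -0.01 for all tested genes, with 6 members below 0 and 1 above. The columns were apart for 5 of 7 members and for 73.8% of all tested genes.

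Slfn1 and Slfn8 came nearest to the threshold. Slfn1 had 100.9 CPM in aged TRM (columns 99.6 and 101) against 190.4 CPM in young TRM (187 and 192). It was 1.89-fold lower in aged TRM (1.81 to 1.96), a log2 ratio of -0.91, and all 4 pairings lay between -0.94 and -0.87. Its aged TRM level was close to the 114 CPM of young TCR, from which it differs in both age and cytokines. Slfn8 had 17.3 CPM in aged TRM (17.2 and 17.3) against 32.4 CPM in young TRM (30.8 and 33.5), 1.87-fold lower (1.70 to 2.06), a log2 ratio of -0.87. A ratio as low was found in 1.51% of tested genes for Slfn1 and in 1.69% for Slfn8. Marker lists of other cells also differed between these libraries. Of B and plasma cell genes, 3 of 6 tested rose in aged TRM (1 with the authors' TPM, and 0 with a pseudocount of 5 or a minimum of 10 CPM). Of CD4 T cell genes 1 of 3 tested fell, the regulatory T cell factor gene Foxp3 at 3.71 CPM in aged TRM and 33.6 CPM in young TRM. The others did not follow it, with Cd4 at 11.6 and 12.4 CPM and Zbtb7b at 14.3 and 8.03 CPM in aged TRM and young TRM. Their part in the levels of Slfn1 and Slfn8 was not tested.

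Slfn9, the member whose promoter and transcript are most like those of Slfn8, had 51.1 CPM in aged TRM (52.9 and 48.8) against 54.0 CPM in young TRM (53.1 and 54.3). The ratio was 0.946 (0.889 to 1.01), an interval that holds 1 and does not reach the 0.486 to 0.588 of Slfn8. The ratio of Slfn8 to Slfn9 was 0.807 in aged TRM, 1.56 in young TRM and 1.54 in young TCR in TPM. The letters TTTCGTTTTC stand in capitals in both of their windows above. Slfn2 had 159.5 CPM in aged TRM (159.6 and 158) and 169 CPM in young TRM (162 and 174), a ratio of 0.941 (0.909 to 0.975). Slfn3 had a ratio of 0.885 (0.806 to 0.971). For Slfn4 and Slfn5 the columns overlapped, at ratios of 0.961 (0.718 to 1.29) and 1.26 (0.994 to 1.59), so no difference was detectable at their depth of 194 and 306 reads.

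The pseudogene Slfn10-ps, which lies between Slfn8 and Slfn2, had 7.18 CPM in aged TRM (7.41 and 6.90), 4.68 CPM in young TRM (3.97 and 5.23) and 8.73 CPM in young TCR (7.08 and 10.5). Its order over the libraries was thus the reverse of that of Slfn8 in the TRM cultures. The ratio was 0.536 (0.443 to 0.647) in young TRM against young TCR and 1.53 (1.26 to 1.87) in aged TRM against young TRM, neither past the threshold on the log2 scale (-0.78 and 0.53). Slfn14, a member that cleaves RNA and is known from the red cell and platelet lineages, had 0 reads in aged TRM and young TRM and 1 read in young TCR. The distant relative Slfnl1 on chromosome 4 had 1 read in aged TRM and 0 in the others.

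Near-identical stretches limit how far neighbours can be separated. Of the 50-base runs of the GENCODE M21 transcripts, Slfn8 shared 9.30% with Slfn9 and 10.1% with Slfn10-ps, Slfn9 shared 8.10% with Slfn10-ps, and Slfn3 shared 7.39% with Slfn4. Runs found in no other annotated gene made up 99.4% of Slfn1, 95.7% of Slfn2, 88.9% of Slfn5, 88.7% of Slfn4, 88.1% of Slfn9, 85.4% of Slfn8, 84.0% of Slfn3 and 80.3% of Slfn10-ps. The authors' handling of reads that fit more than 1 gene was not given in the sources used here, so values of Slfn8, Slfn9, Slfn10-ps, Slfn3 and Slfn4 are less certain than those of Slfn1 and Slfn2.

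**Figure D4:**
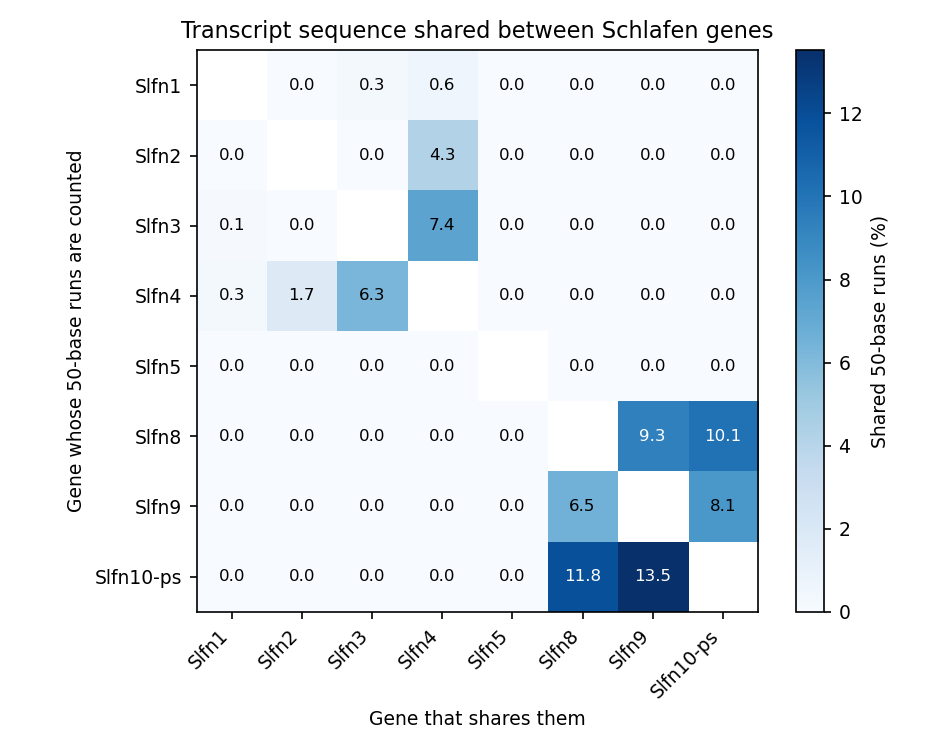
Percent of the 50-base runs of each gene's transcripts (rows) that also occur in the transcripts of another Schlafen gene (columns). The shared runs fall into a block of Slfn8, Slfn9 and Slfn10-ps, up to 13.5%, and a weaker block around Slfn4, up to 7.39%, while Slfn5 shares none with the others.

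The members did not move as 1 block along the chromosome. Among the 10 listed genes on each side of the cluster, 12 of 20 were tested in each comparison. The 20 include the family gene Slfn14, which was not among those tested. In young TRM against young TCR, 1 rose (Ccl1) and 2 fell (Ccl5 and Ccl9), and in aged TRM against young TRM 2 rose (Ccl5 and Ccl9) and 0 fell. These chemokine genes are the outermost on either side. The median log2 ratio of the flanking genes was -0.12 in the first comparison and 0.17 in the age comparison, beside 0.29 and -0.09 for the Schlafen members. These medians are small and rest on few genes, so their signs are a description only.

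**Figure D5:**
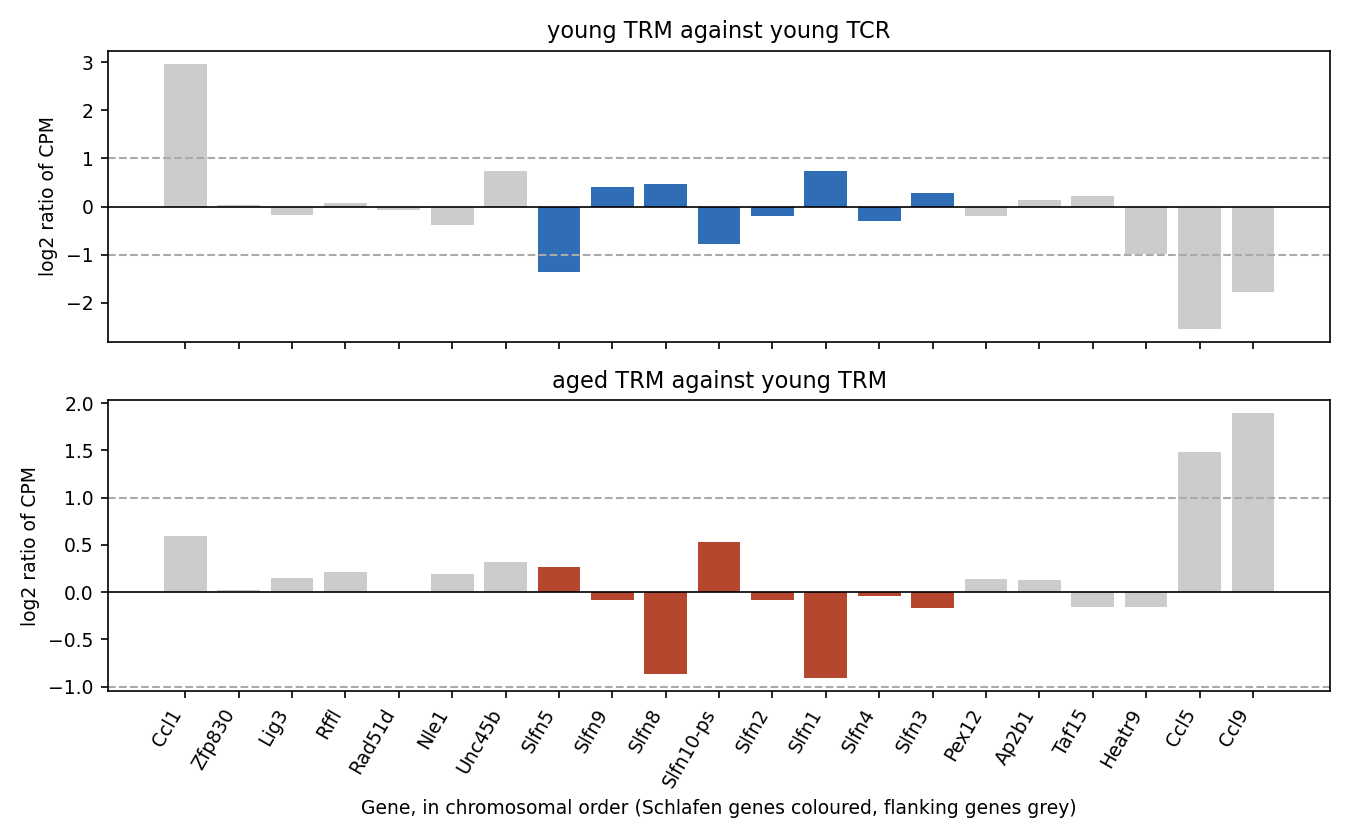
Log2 ratio of CPM for the Schlafen genes (coloured) and the flanking genes that reached 1 CPM in at least 1 library (grey), in chromosomal order, for both comparisons. Dashed lines mark 2-fold. Neighbouring Schlafen genes point in different directions, as with Slfn8 at -0.87 and Slfn10-ps at 0.53 in aged TRM against young TRM.

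Other regulators of T cell quiescence were mostly within 2-fold as well. Of 17 listed, 1 rose and 0 fell in young TRM against young TCR, and 0 rose and 1 fell in aged TRM against young TRM, with medians of 0.26 and -0.29. Both calls were Klf2, a transcription factor that keeps T cells resting and circulating, at 43.8 CPM in aged TRM, 151 CPM in young TRM and 35 CPM in young TCR. In CPM, Slfn1, Slfn3, Slfn8 and Slfn9 shared this order of young TRM above both other libraries, each over a smaller range. For Slfn9 the interval of aged TRM against young TRM held 1, and in TPM aged TRM was the higher. With column 2 alone the age comparison gave 2 calls among the 17 regulators. Foxo1, which acts upstream of Klf2, had 197, 212 and 128 CPM in aged TRM, young TRM and young TCR, and the cell cycle inhibitor gene Cdkn1b had 101, 127 and 106 CPM. None of the 17 cell division genes passed the threshold in either comparison, with medians of -0.01 and -0.02. Among 5 genes that cleave transfer RNA or guard it, such as the angiogenin gene Ang and its inhibitor Rnh1, 4 were tested and 0 passed in either comparison, with medians of -0.45 and 0.31.

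Interferon, known to induce several Schlafen genes, was followed through 2 gene lists. Of 13 interferon signalling genes 7 rose and 0 fell in young TRM against young TCR, with a median of 1.06. The receptor chain gene Ifngr2 had 90.5 CPM in young TRM and 18.0 CPM in young TCR, and the transcription factor gene Irf1 was 2.47 times as high in young TRM. In aged TRM against young TRM 1 fell (Irf7) and 0 rose, with 13 of 13 below 0. Of 19 tested interferon-induced genes 5 rose and 0 fell in the first comparison (median 0.73), and 12 fell and 0 rose in the age comparison (median -1.42, 7 fallen with a pseudocount of 5). Among these, Rtp4 had 1.5, 11.8 and 3.08 CPM in aged TRM, young TRM and young TCR. The summed CPM of the induced genes was 266 in aged TRM, 609 in young TRM and 271 in young TCR. Slfn1, Slfn8 and Slfn3 were, like this sum, highest in young TRM. Slfn9 was highest there in CPM, but in TPM it was highest in aged TRM (11.3 TPM, against 10.6 TPM in young TRM). Slfn1 and Slfn8 were lowest in aged TRM, and Slfn9 and Slfn3 in young TCR. The sum hardly differed between those 2 libraries, which are unlike in both age and cytokines. Most of the 19 genes were lower in aged TRM than in young TCR, while Ifit1, Ifit3, Isg20 and Eif2ak2 were higher. Ifit3 had 12.1 CPM in aged TRM and 4.81 CPM in young TCR, and Rtp4 had the reverse order. Slfn9 had 51.1, 54.0 and 40.6 CPM and Slfn3 22.6, 25.5 and 20.6 CPM in aged TRM, young TRM and young TCR, and Slfn2, Slfn4 and Slfn5 had their highest level in young TCR. The interferon element core was found in the promoter windows of Slfn8, Slfn9 and Slfn5 and not in that of Slfn1. Its part in these levels was not tested. The list of NK and innate lymphoid markers was higher with the cytokines (5 of 5 risen, and 1, Kit, with a pseudocount of 5 or a minimum of 10 CPM), and its part in these values was not tested.

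The genes with the pattern most like that of the 2 most abundant members were sought among 8458 genes of at least 10 CPM in all 3 libraries, by the distance between pairs of log2 ratios. Nearest to Slfn1 were Gm42267 (distance 0.06), Gbp3 (0.06) and 9930111J21Rik1 (0.09). Gbp3, a guanylate-binding protein gene, had 75.1 CPM in aged TRM, 140.5 CPM in young TRM and 80.2 CPM in young TCR. Nearest to Slfn2 were Ctnnbl1, Sod1 and Zfp422, each at 0.01. Over 3 libraries such likeness is a description only.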

How the data were processed

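RNA was sequenced from 3 samples, 1 per group. Per the submitters' processing notes, reads were aligned with Bowtie (no version given) to GRCm38 (mm10). The deposited table gives estimated counts (68.7% of values are not whole) and TPM per gene, in 2 columns per sample. The counter, annotation and strand setting were not given in the sources used here, and 24 other value columns were not used. Estimated counts were rounded and the columns summed. Libraries were scaled with TMM factors of edgeR 4.0.16 in R 4.3.3 (1.01, 0.978 and 1.02 for aged TRM, young TRM and young TCR). A gene was tested at 1 CPM in at least 1 library compared. Ratios carry 95% Clopper-Pearson intervals from the split of reads, computed with scipy 1.17.1 in Python 3.11.15. Reads are not independent molecules, so intervals cover counting error only. With 1 sample per group no p-value was computed. The calling rule was tested on simulated data.

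Column values of CPM were scaled over all 6 columns together. Gene positions and promoters are RefSeq's, GRCm38.p6, and shared 50-base runs come from GENCODE M21 transcripts. Named were all members, Slfn10-ps, Slfn14 and Slfnl1, up to 4 called genes per list and comparison with the largest ratios (not all are reported), and Foxo1, Klf2 and Cdkn1b. Mpeg1, Ctss, Cd68, Adgre1, Cd8a, Cd4, Zbtb7b, Ang, Rnh1 and Eif2ak2 were named to describe their lists. The members and lists were chosen with earlier results of these data known. Alternatives were totals-only scaling, DESeq2 1.42.0 size factors, the authors' TPM, other pseudocounts and filters, and either column alone. Mx1 was not listed in the table. Protein sequences were not used here.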

Additional observations from a re-analysis of the deposited data

How the results depend on the processing

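Over 9 alternatives for each comparison, the number of members called was as reported in 17 of 18 cases. The exception was a pseudocount of 5, with which 0 members were called in young TRM against young TCR (Slfn5 at -0.88). Of 139 alternative log2 ratios of the members and Slfn10-ps, 135 kept their direction and their side of the threshold. In aged TRM against young TRM the sign turned for Slfn4 (0.18) and Slfn5 (-0.0106) with column 2 alone and for Slfn9 (0.087) with the authors' TPM. All 3 were near 0 in size and the cause was not tested. Slfn1 stayed between 0.68 and 0.75 in the first comparison and between -0.92 and -0.86 in the age comparison, and Slfn8 between -0.92 and -0.74 there. Over all genes, 484 rose and 417 fell in the first comparison, against 296 and 190 with a pseudocount of 5 and 349 and 234 with a minimum of 10 CPM. In the age comparison 260 rose and 133 fell, against 87 and 62 and against 123 and 91. Counts of the other lists moved by over 1.5 times in 19 of 216 cases, most of them lists of weakly expressed markers. No paired analysis was possible because each group has 1 sample and the labels leave the meaning of its numbered columns unstated. With 92 to 435 reads per library, Slfn4 and Slfn5 are the members most limited by depth.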
